A study of Mus musculus with 43 samples.

Results

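Glial marker genes were followed in nuclei that had been sorted with an antibody to NeuN, the neuronal RNA-binding protein encoded by Rbfox3. The set comprised 34 genes chosen by name as markers of glia: 15 of astrocytes, 13 of oligodendrocytes, 2 of oligodendrocyte precursors and 4 of microglia. All 34 symbols matched an Ensembl ID among the 53379 IDs of both RNA count tables. In the chromatin tables, the set took in the regions that had a member as the nearest protein-coding gene, with its start within 100 kb. These were 358 of 165184 regions in females and 331 of 192919 in males.

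The libraries came from the frontal cortex of Swiss Webster mice, an outbred stock, that were 2 months old. Mice in environmental enrichment (EE) had lived since weaning at postnatal day 25 in a larger cage with a running wheel, a tube and toys that were exchanged, and mice in standard housing (SH) had lived without these. The labels name no transgene or drug in any group, and all nuclei were fixed with paraformaldehyde and sorted by NeuN and a DNA stain. Nuclear RNA was sequenced in 6 EE and 6 SH libraries of females and in 6 EE and 6 SH libraries of males. Open chromatin was measured by ATAC-seq, in which a transposase cuts accessible DNA, in 3 EE and 3 SH libraries of females and in 6 EE and 7 SH libraries of males. The labels do not say that replicates were separate animals, so p-values measure the spread between these samples. Each sex and assay had its own table, and sex and sequencing run cannot be told apart.

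Astrocytes clear glutamate and potassium around synapses and are joined by gap junctions. Oligodendrocytes wrap axons in myelin and arise from precursors that carry the growth factor receptor PDGFRA, and microglia are the resident macrophages of the brain. Glia largely lack NeuN, and some members, such as Slc1a2, are transcribed in some neurons as well. In bulk libraries, fewer nuclei of a type and less RNA per nucleus cannot be told apart.

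Total counts per library ran from 10625194 to 15392672 in female RNA, from 10394786 to 14622097 in male RNA, from 19075368 to 26257066 in female ATAC and from 27665194 to 73835546 in male ATAC. Levels are CPM, counts scaled to library size after trimmed-mean (TMM) scaling. The neuronal label held in every RNA library: Rbfox3 was at 1913 to 2191 CPM in female EE and 2070.2 to 2263 CPM in female SH libraries, and at 1566 to 1820.1 CPM in male EE and 1571 to 1799 CPM in male SH libraries. Per kb of gene span it averaged 5.03 CPM in females and 4.03 CPM in males. One female library, SH replicate 2, stood apart in the glial genes, and results of the female RNA table are therefore given with and without it. As it was picked by the levels of the members themselves, member results without it are descriptions.

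The promoters of 5 members are shown because the starts of glial genes differed in whether any open region was deposited there, as described below. Each runs from 250 bases before to 50 bases after the RefSeq start (assembly GRCm38.p6), 5′ to 3′ on the strand of the gene, and capitals mark CG, the dinucleotide that is dense in CpG islands and reads the same on both strands. Slc1a3 encodes the glial glutamate transporter GLAST, Cldn11 a tight junction protein of myelin, Mog a myelin surface protein, Pdgfra the receptor that marks oligodendrocyte precursors, and P2ry12 the purine receptor of resting microglia. Their positions were chr15:8710758-8711057 (- strand, 3 CG) for Slc1a3, chr3:31149670-31149969 (+ strand, 24 CG) for Cldn11, chr17:37023349-37023648 (- strand, 3 CG) for Mog, chr5:75152001-75152300 (+ strand, 5 CG) for Pdgfra and chr3:59262936-59263235 (- strand, 4 CG) for P2ry12.
Slc1a3: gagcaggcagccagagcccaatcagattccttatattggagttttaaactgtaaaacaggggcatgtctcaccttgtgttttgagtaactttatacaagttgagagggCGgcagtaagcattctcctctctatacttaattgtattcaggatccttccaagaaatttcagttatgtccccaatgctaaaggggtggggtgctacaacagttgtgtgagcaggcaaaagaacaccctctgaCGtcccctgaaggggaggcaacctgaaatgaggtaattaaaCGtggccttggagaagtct
Cldn11: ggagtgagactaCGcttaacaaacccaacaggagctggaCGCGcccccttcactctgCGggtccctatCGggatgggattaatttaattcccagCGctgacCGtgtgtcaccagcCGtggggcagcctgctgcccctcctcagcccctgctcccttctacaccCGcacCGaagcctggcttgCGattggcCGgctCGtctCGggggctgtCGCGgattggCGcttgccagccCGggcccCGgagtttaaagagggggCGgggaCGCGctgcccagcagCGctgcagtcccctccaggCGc
Mog: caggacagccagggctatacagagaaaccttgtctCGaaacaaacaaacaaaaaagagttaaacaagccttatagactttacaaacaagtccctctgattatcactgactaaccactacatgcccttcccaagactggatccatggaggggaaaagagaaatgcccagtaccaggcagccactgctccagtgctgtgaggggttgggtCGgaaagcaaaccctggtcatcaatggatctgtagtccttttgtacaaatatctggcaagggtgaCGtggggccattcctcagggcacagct
Pdgfra: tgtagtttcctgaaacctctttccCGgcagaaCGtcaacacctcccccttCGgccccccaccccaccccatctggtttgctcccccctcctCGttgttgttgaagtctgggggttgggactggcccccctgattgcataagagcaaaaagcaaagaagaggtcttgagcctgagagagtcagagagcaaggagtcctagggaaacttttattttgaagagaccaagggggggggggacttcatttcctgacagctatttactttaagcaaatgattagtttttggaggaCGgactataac
P2ry12: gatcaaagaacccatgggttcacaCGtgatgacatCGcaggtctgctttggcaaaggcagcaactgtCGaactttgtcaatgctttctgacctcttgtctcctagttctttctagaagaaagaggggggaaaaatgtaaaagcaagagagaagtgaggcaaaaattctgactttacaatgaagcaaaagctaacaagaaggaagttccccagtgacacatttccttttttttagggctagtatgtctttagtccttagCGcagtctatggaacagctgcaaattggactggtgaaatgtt

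Most glial genes were scarce in the RNA of these nuclei, and a few were abundant. Slc1a2, which encodes the main glutamate transporter of astrocytes, was the highest member per length, at 5.68 CPM per kb of gene span in females and 5.28 CPM per kb in males, beside the values of Rbfox3 given above. Next per kb in females came Enpp2, which encodes the secreted enzyme autotaxin, at 1.45 CPM, the glutamine synthetase gene Glul at 1.38 CPM, the myelin basic protein gene Mbp at 1.06 CPM and the bicarbonate transporter gene Slc4a4 at 0.906 CPM. In males the same genes were at 1.62, 0.978, 0.922 and 0.513 CPM per kb. Cx3cr1, the fractalkine receptor gene of microglia, was the lowest tested member in females at 0.0201 CPM per kb, and in males it was at 0.0237 CPM per kb, next to Ranbp3l, the lowest there at 0.0200 CPM per kb. The annotated span of Cx3cr1, 168.3 kb, overlaps 5 other protein-coding genes, so the counts of Cx3cr1 may hold reads of those genes. That span runs from 119901616 to 120069879 on chromosome 9, and the RefSeq gene only from 120048683 to 120068296. The value per kb and the rank of Cx3cr1 therefore depend on the span used, and ranks by RefSeq span were not computed. C1qa, a subunit of the complement component C1q, had 1 to 10 counts per library in females and 1 to 9 in males and was the only member below the count filter in both tables. The other 33 were tested in each table.

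Astrocyte members varied widely in level between female libraries. Slc1a3 had a lowest, median and highest value of 11.2, 23.5 and 45.5 CPM in female EE libraries, and of 13.3, 19.1 and 86.9 CPM in female SH libraries. The highest SH value was that of replicate 2, and the other 5 SH libraries lay at or below 24.7 CPM, within the range of EE. Gfap, the intermediate filament gene of astrocytes, spanned 0.723 to 4.81 CPM in female EE and 0.893 to 7.64 CPM in female SH libraries. The water channel gene Aqp4 spanned 1.79 to 4.38 CPM in female EE and 1.54 to 10.1 CPM in female SH libraries, again with replicate 2 on top. In male libraries Slc1a3 had a lowest, median and highest value of 10.1, 23.8 and 24.8 CPM in EE and of 13.8, 18.6 and 23.1 CPM in SH. EE replicate 1 was the low one, and the groups overlapped. Male Gfap spanned 0.506 to 2.28 CPM in EE and 0.686 to 1.61 CPM in SH, and male Aqp4 1.82 to 5.42 CPM in EE and 1.78 to 4.60 CPM in SH.

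Slc1a2 did not share that width. It had a lowest, median and highest value of 605, 705 and 775 CPM in female EE libraries and of 692, 766 and 1027 CPM in female SH libraries, the last in replicate 2. In male libraries these were 668, 739 and 802 CPM in EE and 617, 671 and 703 CPM in SH, and the groups overlapped in both sexes. The highest of all female libraries was thus 1.70 times the lowest for Slc1a2, against 7.78 times for Slc1a3 and 17.5 times for Gjb6, which encodes the gap junction protein connexin 30.

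Other astrocyte members differed in width as well. Gja1, which encodes the gap junction protein connexin 43, had a lowest, median and highest value of 2.04, 4.04 and 6.99 CPM in female EE and of 2.33, 4.15 and 17.2 CPM in female SH libraries. The growth factor receptor gene Fgfr3 spanned 1.91 to 5.22 CPM in female EE and 1.40 to 9.74 CPM in female SH libraries, and Ranbp3l 2.23 to 5.98 CPM in EE and 2.27 to 13.2 CPM in SH. Replicate 2 was the highest female library for all 3. Glul, which turns glutamate into glutamine, was at 8.87 to 17.8 CPM in female EE and 8.77 to 29.8 CPM in female SH libraries, and at 7.39 to 13.1 CPM in male EE and 7.40 to 10.1 CPM in male SH libraries. Sox9 was at 2.48 to 3.45 CPM in female EE and 1.3 to 4.36 CPM in female SH libraries, with an EE median of 2.90 and an SH median of 1.71 CPM. In males Gja1 spanned 1.82 to 7.47 CPM in EE and 2.88 to 5.49 CPM in SH, and Fgfr3 0.911 to 3.99 CPM in EE and 0.822 to 2.35 CPM in SH. S100b, a calcium-binding protein gene, and Ntsr2, a neurotensin receptor gene, stayed below 7 CPM in every library of both sexes.

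Oligodendrocyte members showed a similar contrast between even and uneven genes. Mbp had a lowest, median and highest value of 87.5, 104 and 164 CPM in female EE and of 82.3, 111 and 208 CPM in female SH libraries. In males these were 74.1, 99.5 and 159.6 CPM in EE and 88.1, 95.3 and 113 CPM in SH, with EE replicate 4 the highest. Mobp, another structural gene of myelin, had 5.47, 8.51 and 21.1 CPM in female EE and 6.05, 6.70 and 34.4 CPM in female SH libraries, and 3.74 to 13 CPM in male EE and 3.36 to 6.51 CPM in male SH libraries. Its highest libraries were again female SH replicate 2 and male EE replicate 4. Mag, an adhesion molecule gene of myelin, spanned 1.52 to 8.51 CPM in female EE and 1.94 to 11.2 CPM in female SH, and 0.304 to 5.27 CPM in male EE and 1.37 to 3.17 CPM in male SH libraries. Mog had 0.986, 2.39 and 4.55 CPM in female EE and 2.1, 2.76 and 7.09 CPM in female SH libraries, and 1.2, 1.65 and 3.30 CPM in male EE and 0.411, 1.12 and 1.51 CPM in male SH libraries. Sox10, the transcription factor of the oligodendrocyte lineage, spanned 0.659 to 2.73 CPM in female EE and 0.893 to 5.06 CPM in female SH, and 0.607 to 1.58 CPM in male EE and 0.548 to 1.78 CPM in male SH libraries. Cldn11, Opalin, Ermn, Gjc3 and Aspa had medians between 0.859 and 2.59 CPM in every group. The groups overlapped for all of these genes. Enpp2 was the even one, at 136 to 180.0 CPM in female EE and 143 to 208 CPM in female SH, and at 154 to 208 CPM in male EE and 158 to 198 CPM in male SH libraries.

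Precursor and microglial members were low throughout. Pdgfra had a lowest, median and highest value of 2.27, 3.22 and 5.64 CPM in female EE and of 1.24, 1.84 and 10.8 CPM in female SH libraries. Apart from replicate 2, the highest female SH value was 2.52 CPM, and 5 of the 6 EE libraries lay above it. In males Pdgfra spanned 1.01 to 3.34 CPM in EE and 2.01 to 3.15 CPM in SH. Cspg4, which encodes the proteoglycan NG2 of precursors and pericytes, spanned 1.37 to 3.38 CPM in female EE and 0.57 to 5.92 CPM in female SH, and 0.607 to 2.55 CPM in male EE and 1.37 to 2.82 CPM in male SH libraries. Cx3cr1 had 1.89, 2.89 and 4.21 CPM in female EE and 1.71, 3.37 and 7.17 CPM in female SH libraries, and 2.43, 3.99 and 5.38 CPM in male EE and 3.13, 4.23 and 4.82 CPM in male SH libraries. Csf1r, the receptor on which microglia depend to survive, spanned 0.854 to 4.72 CPM in female EE and 1.40 to 7.25 CPM in female SH, and 1.21 to 3.58 CPM in male EE and 1.26 to 3.23 CPM in male SH libraries. The groups overlapped for each of these genes in both sexes. Csf1r lies over part of Hmgxb3 and P2ry12 within Med12l, so reads of those genes may be among their counts.

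**Figure D1:**
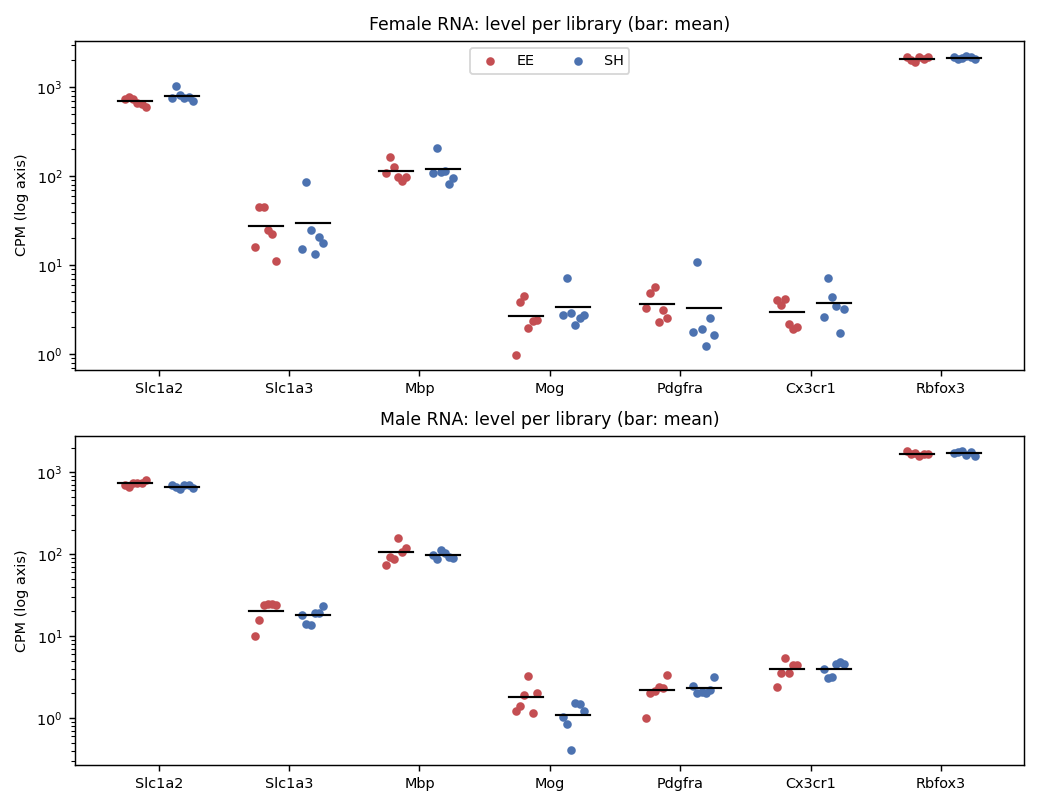
Level of 6 members and of Rbfox3 in each RNA library, in CPM on a log axis, with females above and males below; red points are EE, blue points SH and bars the mean of 6 libraries. Slc1a2 and Rbfox3 are tight. In females 1 SH library (replicate 2) lies above the rest in Slc1a2, Slc1a3, Mbp, Mog, Pdgfra and Cx3cr1, at 1027, 86.9, 208, 7.09, 10.8 and 7.17 CPM.

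To compare whole classes, the log2 CPM of the tested members of a class was averaged in each library and centred on the mean of the table. Female SH replicate 2 reached 1.19 for astrocyte, 1.45 for oligodendrocyte, 1.73 for precursor and 1.47 for microglial members, and the next highest female library lay at 0.51, 0.62, 0.77 and 0.67. For females, the mean astrocyte level was 0.00 ± 0.42 in EE libraries and -0.00 ± 0.62 in SH libraries, and the mean oligodendrocyte level -0.00 ± 0.47 in EE libraries and 0.00 ± 0.75 in SH libraries (SD over 6 libraries each). For males, these were 0.08 ± 0.41 in EE and -0.08 ± 0.18 in SH libraries for astrocyte members, and 0.11 ± 0.52 in EE and -0.11 ± 0.36 in SH libraries for oligodendrocyte members. Male EE replicate 1 was the lowest male library in all 4 classes, from -0.63 for astrocyte to -1.09 for precursor members, and male EE replicate 4 was the highest for oligodendrocyte members, at 0.84. In each class and sex the difference between the means was smaller than the SD of either group.

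**Figure D2:**
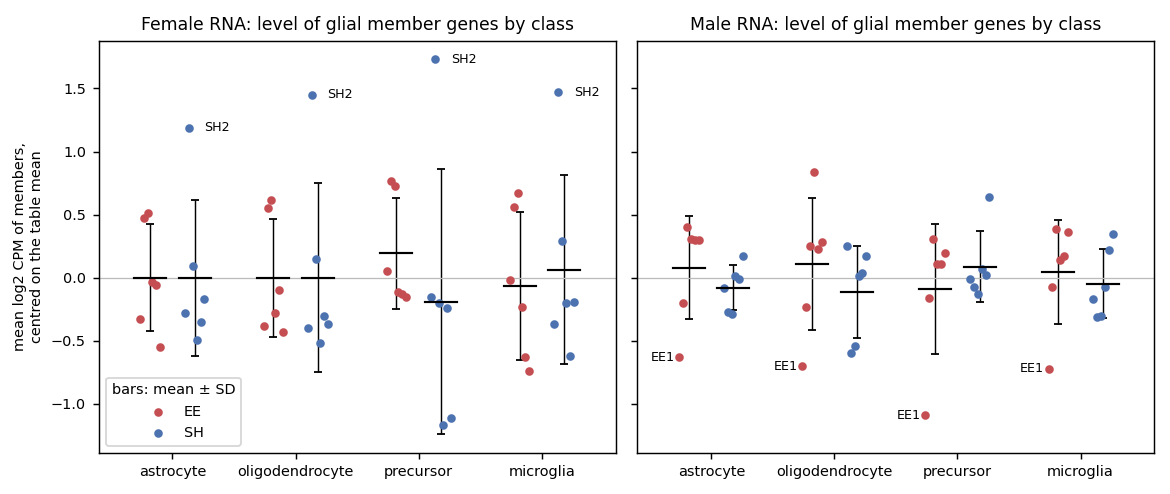
Mean log2 CPM of the tested members of each class in each RNA library, centred on the mean of the table, for females (left) and males (right); points are libraries, bars the mean ± SD of 6. Female SH replicate 2 is the highest point of every class (1.19 to 1.73), and male EE replicate 1 the lowest (-0.63 to -1.09).

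Other cell types moved with some of these libraries. Of 22 vascular markers kept as a separate list, 15 passed the count filter in females and 9 in males. Their summed level was 21.7 to 67.7 CPM in female EE and 24.1 to 114 CPM in female SH libraries, and 15.2 to 28.2 CPM in male EE and 16.5 to 26.8 CPM in male SH libraries. Across the 12 libraries of a sex, the vascular level correlated with the level of all members at r = 0.94 in females (0.90 without SH replicate 2) and 0.35 in males. A list of 16 neuronal genes, of which 15 were tested, summed to 10252 to 10902 CPM in female EE and 10414 to 11159.9 CPM in female SH libraries. In males it summed to 9970.3 to 10845 CPM in EE and 9659 to 10340.1 CPM in SH libraries, and its level correlated with that of all members at r = 0.62 in females (0.33 without SH replicate 2) and 0.02 in males. These correlations share libraries and scaling and are descriptions. The part of vascular material in the results was not tested.

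The 4 glial classes went up and down together from library to library. Over 12 libraries, astrocyte and oligodendrocyte levels correlated at r = 0.98 in females and 0.87 in males, and astrocyte and microglial levels at 0.92 in females and 0.93 in males. The lowest correlation between classes was that of precursor and microglial levels in females (0.76) and of oligodendrocyte and precursor levels in males (0.64). Without female SH replicate 2 the correlations between classes in females ran from 0.53 (precursor and microglia) to 0.95 (astrocyte and oligodendrocyte). Single members behaved likewise: the correlation of a member with the mean of the other tested members had a median of 0.87 in females, 0.73 without SH replicate 2, and 0.72 in males. It was at least 0.5 for 30 of 33 members in females, for 27 of 33 without SH replicate 2, and for 28 of 33 in males. Enpp2 was the only member with a negative value when all libraries were used, at -0.03 in females and -0.26 in males. Bmpr1b was at 0.48 in both sexes, and Slc4a4 and Sox9 were at 0.31 and 0.30 in males. Aldh1l1, which encodes a folate enzyme used as an astrocyte marker, had 0.49 in females, -0.43 without SH replicate 2, and 0.40 in males.

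For a test, 1 defining gene stood for each class, and Pearson and Spearman correlations were given permutation p-values with 100000 resamples (two-sided, adjusted by Benjamini-Hochberg over the 12 combinations of pair and sex). Slc1a2 is transcribed in some neurons as well, and counts of Cx3cr1 may hold reads of the 5 protein-coding genes that its span overlaps. The p-values are therefore for pairs of genes and not for classes. In females Mbp and Cx3cr1 correlated at r = 0.83 (permutation p = 0.000450, adjusted p = 0.00540) and rho = 0.87 (adjusted p = 0.00696). Slc1a2 correlated with Mbp at r = 0.76 (permutation p = 0.00577, adjusted p = 0.0231; rho = 0.62, adjusted p = 0.176) and with Cx3cr1 at r = 0.77 (permutation p = 0.00323, adjusted p = 0.0194; rho = 0.60, adjusted p = 0.176). Mbp and Pdgfra had r = 0.73 (permutation p = 0.0101, adjusted p = 0.0302; rho = 0.42, adjusted p = 0.314). When the 2 libraries farthest from the median of the first gene were left out, Mbp and Cx3cr1 kept r = 0.84 (permutation p = 0.00345, adjusted p = 0.0414). The other 3 were at 0.46 for Slc1a2 with Mbp, 0.51 for Slc1a2 with Cx3cr1 and 0.15 for Mbp with Pdgfra and no longer passed. Leaving out extreme libraries narrows the range, so whether these pairs rest on those libraries cannot be told. On deviations from the housing mean, with all 12 libraries, they were at 0.87, 0.79 and 0.78 (permutation test, adjusted p = 0.00270, 0.00501 and 0.0161). There rho was 0.76, 0.72 and 0.41 (adjusted p = 0.0301, 0.0301 and 0.290). On the levels themselves, no male pair passed. Mbp and Cx3cr1, the female pair that was kept, had r = 0.13 (permutation p = 0.676) and rho = 0.05 in males. The nearest was Pdgfra with Cx3cr1, at r = 0.66 (permutation p = 0.0220, adjusted p = 0.0528) and rho = 0.36 (adjusted p = 0.330). On deviations from the housing mean this male pair passed by r (0.66, permutation test, adjusted p = 0.0366) and not by rho (0.33, adjusted p = 0.325).

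Non-member genes were ranked by how closely they followed the class levels. By Pearson correlation with the astrocyte level over 12 libraries, the 8 closest in females included Slco1c1, Atp13a5, Dock1, Hmcn1, Lama1 and Gli2 (r = 0.97 to 0.98). In males they included Ptprz1 and Gramd3 (0.96), Dock1 (0.95), Bmp2k, Nwd1, Slco1c1 and Adap2 (0.93 to 0.94). For the oligodendrocyte level they included Acsbg1 (0.99), Dock1, Gli2, Sparcl1, Hmcn1 and Pld1 (0.98) in females. In males they included St18 (0.96), Tril (0.94), Bcas1 and Mal (0.93), Zbtb20 and Gpr37 (0.92) and Ptprz1 (0.91).

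Set beside genes of all levels, glial members were among the least even of the tables. The biological coefficient of variation, the spread between libraries of a group beyond counting error as edgeR estimates it, had a median of 0.489 over the 33 tested members in females, where the median of all 14587 tested genes was 0.131. In males it was 0.231, where the median of 14597 genes was 0.0840. Of the 33 members, 26 lay at or above the percentile 90 of all genes in females and 22 in males. The neuronal list had a median of 0.0639 in females and 0.0582 in males. The lists differed in level: 24 members averaged 1 to 10 CPM in each sex, and the lowest tested neuronal gene of females, Gad1, averaged 40.9 CPM. Spread was not compared with that of genes of like level. In females part of that width came with 1 library: the median within-group SD of the log2 level was 0.74 over members with all libraries and 0.50 without SH replicate 2, where that of all genes was 0.20 and 0.19. The members below the median of all genes were Slc4a4 (0.0824), Enpp2 (0.104), Slc1a2 (0.109) and Bmpr1b (0.124) in females, and Slc4a4 (0.0545), Slc1a2 (0.0614) and Aldh1l1 (0.0746) in males. Enpp2 was at 0.0851 and Bmpr1b at 0.153 in males, and Aldh1l1 at 0.201 in females.

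**Figure D3:**
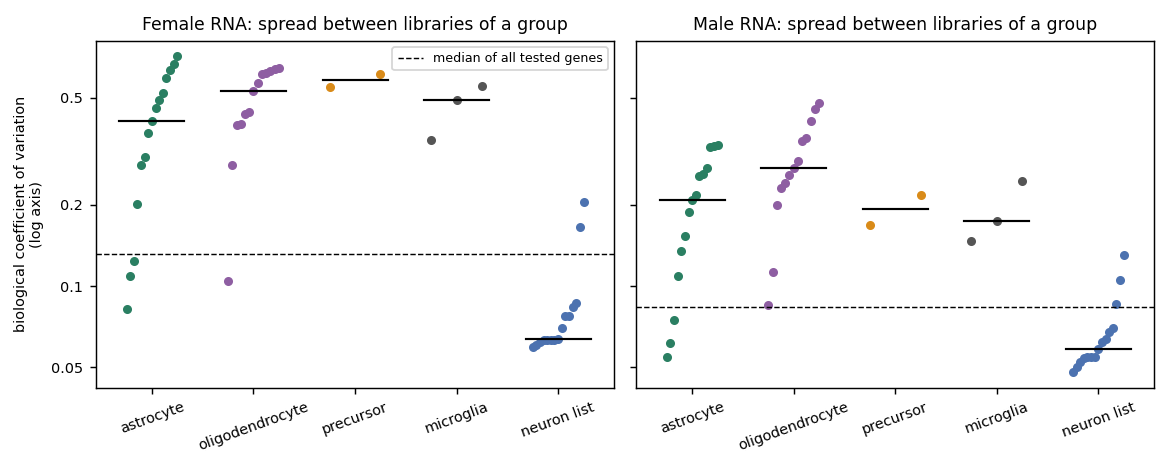
Biological coefficient of variation of each tested member by class, with the neuronal list beside them, on a log axis; short bars are medians of a class and the dashed line the median of all tested genes (0.131 in females, 0.0840 in males). Most glial members lie above the dashed line (29 of 33 in females, 30 of 33 in males), and most neuronal genes below it.

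The main question of the design was whether enrichment changed these levels. In female RNA, 0 of 33 tested members passed edgeR's quasi-likelihood test at a Benjamini-Hochberg adjusted p under 0.05, where percent called over all 14587 genes was 0. At an unadjusted p under 0.05 there were 5 members (Slc1a2, Bmpr1b, Slc4a4, Aldh1l1 and Enpp2), beside 1265 of all genes (8.67%). DESeq2 called 1 member, Bmpr1b, among 117 genes (0.802%), and limma voom called 0 genes. Of the members, 7 had a positive and 26 a negative log2 fold change, EE over SH, with a median of -0.12, beside 50.6% positive and a median of 0.00 over all genes. By class the counts of positive values were 4 of 15 astrocyte, 2 of 13 oligodendrocyte, 1 of 2 precursor and 0 of 3 microglial members. These directions rested on 1 library and on the tool. With limma voom 14 of 33 were positive, with a median of -0.05. Without SH replicate 2, 29 of 33 members were positive and the median was 0.31, beside 52.7% and 0.01 over all 14719 genes tested then. No member had EE and SH libraries that did not overlap in either sex, which held for 0.548% of genes in females and 0.541% in males.

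Bmpr1b, a type I receptor for bone morphogenetic proteins, came closest in females. It had a lowest, median and highest value of 32, 39.0 and 46.9 CPM in EE libraries and of 23.7, 25.4 and 36.5 CPM in SH libraries. Only SH replicate 2, at 36.5 CPM, reached into the range of EE. It averaged 39.1 ± 4.90 CPM over the EE libraries and 27.0 ± 4.81 CPM over the SH libraries (SD), a log2 fold change of 0.53 ± 0.11 (SE, edgeR adjusted p = 0.0996). Without SH replicate 2 it was 0.63 (edgeR adjusted p = 0.000288), under the threshold. That library was left out for its high values in the members, so this p-value is a description. Slc4a4, which carries sodium and bicarbonate into astrocytes, was at 313 to 387 CPM in EE and 263 to 343 CPM in SH libraries, with a log2 fold change of 0.21 ± 0.06 (SE, edgeR adjusted p = 0.223), and of 0.26 without SH replicate 2 (edgeR adjusted p = 0.0322). These 2 were the only members called without that library, when 85 of all genes were (0.577%).

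Other female members did not pass with or without that library. Slc1a2 had a log2 fold change of -0.21 ± 0.09 (SE, edgeR adjusted p = 0.524), and Enpp2 one of -0.22 ± 0.08 (edgeR adjusted p = 0.473). They kept their sign without SH replicate 2, at -0.13 and -0.22. Among the members next in order of p in the oligodendrocyte class, Gjc3, a gap junction gene, was at -0.47 ± 0.39 and Cnp, a myelin phosphodiesterase gene, at -0.43 ± 0.38, and without SH replicate 2 they were at 0.02 and 0.13. Slc1a3 was at -0.12 ± 0.55, Gfap at -0.28 ± 0.59, Aqp4 at -0.36 ± 0.40, Mbp at -0.08 ± 0.24, Mog at -0.32 ± 0.35 and Sox10 at -0.05 ± 0.47. Without that library these 6 were all positive, from 0.05 for Mog to 0.69 for Sox10. Pdgfra was at 0.11 ± 0.54 with all libraries and at 0.99 without that one (edgeR adjusted p = 0.0828), and Cspg4 at -0.05 ± 0.48 and 0.58. The microglial genes Cx3cr1, Csf1r and P2ry12 were at -0.34 ± 0.31, -0.10 ± 0.49 and -0.27 ± 0.44, and at -0.05, 0.50 and 0.31 without it. Except for Slc1a2 and Enpp2, the SE of these members ran from 0.24 to 0.59, so that small changes could not be detected.

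In male RNA, 0 of 33 members passed the same edgeR test, where 6 of 14597 genes did (0.0411%). At an unadjusted p under 0.05 there were 5 members (Slc1a2, Ugt8a, Slc4a4, Gjb6 and Mog), beside 8.03% of all genes. DESeq2 called 1 member, Slc4a4, among 61 genes (0.418%), and limma voom 0 members among 5 genes (0.0343%). Of the members, 28 had a positive and 5 a negative log2 fold change, with a median of 0.20, beside 47.9% positive and a median of -0.01 over all genes. All 13 oligodendrocyte members were positive (median 0.33), as were 13 of 15 astrocyte members (0.20) and 2 of 3 microglial members, and 0 of 2 precursor members were. The median over members ran from 0.09 without EE replicate 4 to 0.33 without EE replicate 1, and that of oligodendrocyte members from 0.09 to 0.43 without the same libraries.

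Slc4a4 had the smallest p of the male members. Its lowest, median and highest values were 177, 190.4 and 199.6 CPM in EE libraries and 163, 169 and 187 CPM in SH libraries, and the groups overlapped. The log2 fold change was 0.14 ± 0.04 (SE, edgeR adjusted p = 0.313). Slc1a2 was at 0.13 ± 0.05 (edgeR adjusted p = 0.425). Ugt8a, which makes the myelin lipid galactocerebroside, was at 6.58 to 9.60 CPM in EE and 3.98 to 6.96 CPM in SH libraries, a log2 fold change of 0.38 ± 0.12 (edgeR adjusted p = 0.399). Mog was at 0.79 ± 0.30 (edgeR adjusted p = 0.453) and Gjb6 at 0.68 ± 0.32 (edgeR adjusted p = 0.608). Bmpr1b, nearest to the threshold in females, was at 12 to 18.7 CPM in male EE and 9.64 to 17.1 CPM in male SH libraries, with 0.25 ± 0.14 (edgeR adjusted p = 0.686). Slc1a3, Gfap, Aqp4, Mbp and Sox10 were at 0.20 ± 0.22, 0.43 ± 0.29, 0.37 ± 0.30, 0.14 ± 0.17 and 0.15 ± 0.32, and Cnp was at 0.33 ± 0.22. Pdgfra was at -0.04 ± 0.21, Cspg4 at -0.18 ± 0.26, Cx3cr1 at -0.02 ± 0.17, Csf1r at 0.22 ± 0.25 and P2ry12 at 0.12 ± 0.22.

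**Figure D4:**
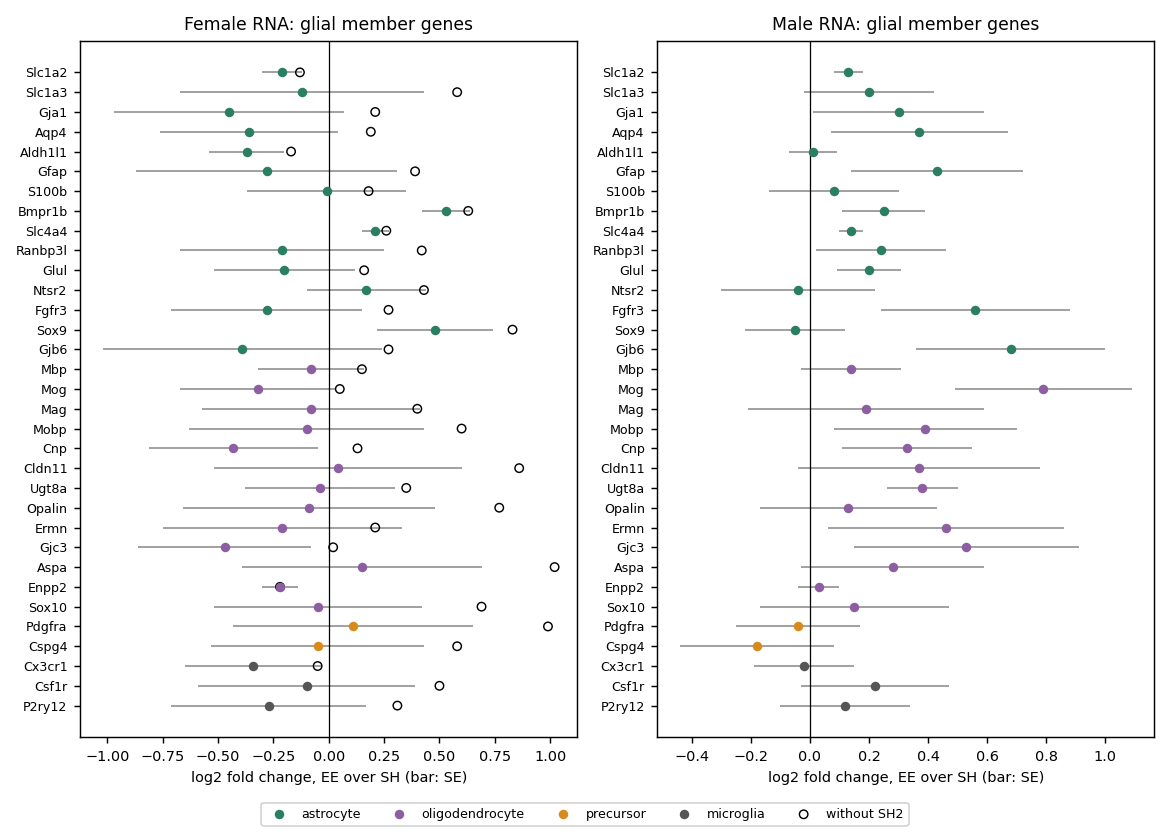
Log2 fold change of EE over SH for each of the 33 tested members in female (left) and male (right) RNA, with the SE as a bar and the class as colour; open circles in the female panel leave out SH replicate 2. In females 26 of 33 filled points lie below 0 and 29 of 33 open circles above it, and in males 28 of 33 points lie above 0; with all libraries 0 members passed in either sex.

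Lists of further markers, which held no member, gave 0 called genes in both sexes by edgeR with all libraries. At an unadjusted p under 0.05 they held 1 further precursor and 3 neuronal genes in females and 2 further astrocyte genes in males. In females 2 of 20 further astrocyte, 5 of 12 further oligodendrocyte, 3 of 7 further precursor and 2 of 7 further microglial genes were positive, and 18, 11, 5 and 5 were without SH replicate 2. In males 16 of 20, 10 of 11, 5 of 7 and 4 of 7 were positive. Of vascular genes 6 of 15 were positive in females, 14 of 15 without SH replicate 2, and 4 of 9 in males. Of neuronal genes 7 of 15 were positive in females and 6 of 15 in males.

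Whether the housing difference differed between the sexes was tested as an interaction in 1 fit of all 24 RNA libraries. Of 33 members 0 passed edgeR's test, where 1 of 15562 genes did (0.00643%). Without adjustment 3 members had a p under 0.05, beside 8.98% of all genes, and DESeq2 called 1 member among 91 genes (0.585%). Slc1a2 had the smallest p, at -0.21 (log2, EE over SH) for females against 0.13 for males, a difference of -0.34 ± 0.10 (SE, edgeR adjusted p = 0.246). It was the member that DESeq2 called (adjusted p = 0.0490). Mog differed by -1.10 ± 0.50 (edgeR adjusted p = 0.517), Enpp2 by -0.25 ± 0.12 (edgeR adjusted p = 0.544) and Aldh1l1 by -0.39 ± 0.19 (edgeR adjusted p = 0.575). The difference of Mog was -0.74 and that of Aldh1l1 -0.19 without female SH replicate 2.

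At gene starts, open regions were deposited for most astrocyte members and for fewer members of the other classes. The lists of further markers did not share the contrast between astrocyte and oligodendrocyte genes. Their shares were also lower for precursor and microglial genes than for astrocyte genes. A region lay within 1 kb of the annotated start for 12 of 15 astrocyte members in females and 14 of 15 in males, and for 5 of 13 oligodendrocyte members in both sexes. The 2 precursor members had none, and of the 4 microglial members 0 had one in females and 1, Csf1r, in males. Among further markers, 9 of 20 astrocyte and 8 of 20 oligodendrocyte genes had one in females, and 13 of 20 astrocyte and 15 of 20 oligodendrocyte genes in males. Of further precursor genes 3 of 10 had one in females and 4 of 10 in males, and of further microglial genes 3 of 20 in females and 6 of 20 in males. Of 16 neuronal genes 15 had one in both sexes. Over protein-coding genes past the RNA count filter the share was 87.9% in females and 91.7% in males, and over those with a mean level of 1 to 10 CPM it was 80.8% in females and 87.4% in males. Of the members within that range of level, 10 of 24 had a region in females and 12 of 24 in males. The 14 members with none in either sex were Aqp4, Mog, Mag, Mobp, Opalin, Ermn, Gjc3, Aspa, Sox10, Pdgfra, Cspg4, Cx3cr1, P2ry12 and C1qa. Oligodendrocyte members with a region at the start were Mbp, Cnp, Cldn11, Ugt8a and Enpp2. The depth of the ATAC libraries differed between the sexes, and the regions were called separately, so the shares of the sexes were not compared.

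**Figure D5:**
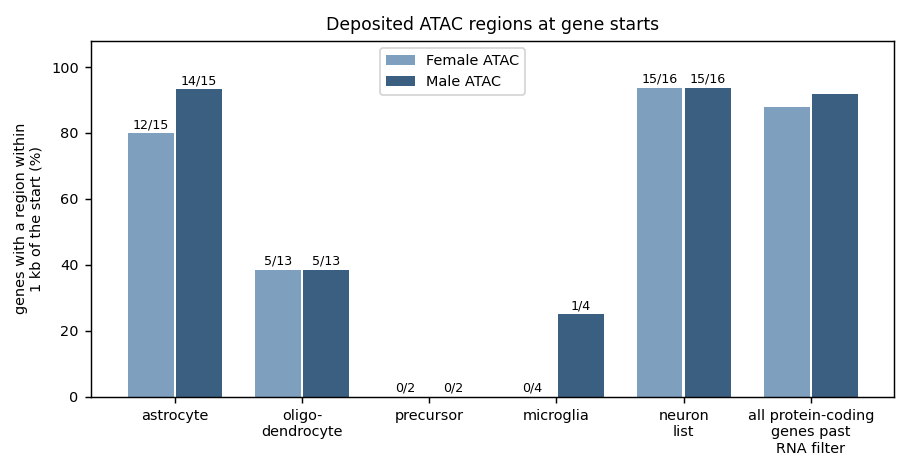
Share of genes with a deposited ATAC region within 1 kb of the annotated start, in percent, for the 4 glial classes, the neuronal list and all protein-coding genes past the RNA count filter (light bars females, dark bars males; counts above the bars of the lists). Astrocyte members stand at 12 of 15 in females and 14 of 15 in males, oligodendrocyte members at 5 of 13 in both (38.5%), and precursor members at 0; the lists of further markers are not drawn.

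CG content of the promoters was set beside the presence of a region. Of the 34 members, 27 were in the RefSeq promoter table, and 21 of these had a promoter start in that table within 1 kb of the deposited gene start. The 12 of them with a region within 1 kb of that promoter start in either sex had a median of 12.5 CG in 300 bases, and the 9 with none a median of 5. Over 14492 protein-coding genes treated alike, the medians were 21 with a region and 3 without. At least 10 CG were found in 33.3% of the 21 member promoters and in 63.2% of all promoters. A region was present at 6 of the 7 member promoters with at least 10 CG and at 6 of the 14 with fewer, where the shares over all genes were 95.0% and 31.3%. In the sequences above, Cldn11 with 24 CG had a region over its start in both sexes, and Mog with 3, P2ry12 with 4 and Pdgfra with 5 had none within 1 kb. Slc1a3 with 3 CG had a region over its start in males and one within 1 kb in females. Cspg4 was the member with at least 10 CG (17) and no region.

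No difference in open chromatin at these starts passed the test. Taking the region nearest to each start, 0 of 17 members in females and 0 of 20 in males passed edgeR's test, with lowest adjusted p of 0.617 and 1.00. Log2 fold changes ran from -0.44 (Gfap) to 0.29 (Bmpr1b) in females, where 4 were positive and 12 negative, and from -0.16 (Cnp) to 0.12 in males, where 14 were positive and 6 negative. Over all regions within 1 kb of a protein-coding start, 69.4% were negative in females and 68.3% in males. At its start, Slc1a2 had 29.5 ± 3.62 CPM in the 3 female EE libraries and 30.8 ± 1.05 CPM in the 3 female SH libraries (SD). It had 62.9 ± 4.57 CPM in the 6 male EE libraries and 64.1 ± 4.73 CPM in the 7 male SH libraries, in a region that is 10781 bases wide. Per kb of region the member starts had a median of 9.48 CPM in females and 5.47 CPM in males, where all start regions had 12.5 and 6.54 CPM.

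Over all 358 member regions of females, 1 passed edgeR's test, where 78 of 164926 tested regions did (0.0473%). At an unadjusted p under 0.05 there were 40, beside 8.01% of all regions. Of the member regions, 151 had a positive and 207 a negative log2 fold change, beside 48.3% positive of all regions, and for oligodendrocyte members these were 43 and 100. Of these 143 oligodendrocyte regions, 66 had Mbp as the nearest gene. Within 10 kb of a start, the oligodendrocyte regions were 16 positive and 17 negative, and regions of the further oligodendrocyte list were 41 and 36. The neuronal list leaned to negative values in the same table, with 129 and 249. The region that passed lay inside Ranbp3l, which encodes a Ran-binding protein that is enriched in astrocytes, on chromosome 15 from 9015717 to 9016296 (mm10), 47.7 kb from the start of the gene. The EE libraries had 1.35, 0.619 and 1.17 CPM there and the SH libraries 5.00, 3.82 and 4.71 CPM. The groups did not overlap, as in 12.8% of all female regions, and the log2 fold change was -2.11 ± 0.27 (SE, edgeR adjusted p = 1.76e-06). Limma voom called the same region (adjusted p = 5.55e-05) among 0.0358% of all regions. DESeq2, which called 0.0740% of all regions, gave it no adjusted p and called the Mbp region described next (adjusted p = 0.0372). Without EE replicate 1, 3 member regions were called, and without SH replicate 1, 2 were, among them that of Ranbp3l each time. The overlapping region of the male table had 0.465 to 2.70 CPM in EE and 0.351 to 2.43 CPM in SH libraries, with 0.17 ± 0.52 (edgeR adjusted p = 1.000). The RNA of Ranbp3l was at -0.21 (log2, EE over SH) in females, or 0.42 without SH replicate 2 of that table, and at 0.24 in males.

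The next female regions did not pass. A region inside Mbp on chromosome 18 from 82561507 to 82563414 had 6.2, 6.0 and 7.80 CPM in EE and 11.5, 9.64 and 11.3 CPM in SH libraries, with -0.70 ± 0.16 (edgeR adjusted p = 0.0583). A region inside Bmpr1b on chromosome 3 from 142117160 to 142117685 had 5.86, 5.42 and 3.77 CPM in EE and 2.75, 2.64 and 2.49 CPM in SH libraries, with 0.93 ± 0.22 (edgeR adjusted p = 0.0668). A region inside Slc4a4 on chromosome 5 from 88973063 to 88973872 had 14, 11.8 and 11.3 CPM in EE and 10.4, 8.13 and 6.11 CPM in SH libraries, with 0.58 ± 0.16 (edgeR adjusted p = 0.145). Bmpr1b and Slc4a4 were also the 2 female members with the largest values above SH relative to their SE in RNA. In the male regions that overlap these 3, the log2 fold changes were 0.04 ± 0.16, 0.08 ± 0.14 and -0.08 ± 0.07 (edgeR adjusted p = 1.000 each).

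In males 0 of 331 member regions passed edgeR's test, where percent called over all 192834 regions was 0. At an unadjusted p under 0.05 there were 19, beside 4.54% of all regions, and DESeq2 and limma voom called 0 members, beside 7 regions (0.00363%) and 0 regions. Of the member regions, 189 had a positive and 142 a negative log2 fold change, beside 49.7% positive of all regions. The smallest p was at a region 89.8 kb upstream of Sox9, the transcription factor gene of astrocytes, on chromosome 11 from 112691993 to 112692386. It had 1.38 to 1.93 CPM in EE and 0.355 to 1.34 CPM in SH libraries, so that the groups did not overlap, as in 0.123% of all male regions, and its log2 fold change was 0.60 ± 0.19 (edgeR adjusted p = 1.000). A region 3.1 kb upstream of Cnp had -0.36 ± 0.13, and regions 93.1 and 72.5 kb upstream of Aqp4 had -0.47 ± 0.17 and -0.21 ± 0.08 (edgeR adjusted p = 1.000 each). Averaged over the regions of a class, the log2 level of a male library stayed within -0.12 and 0.17 of the table mean in all 4 classes, and that of a female library within -0.22 and 0.12.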

How the data were processed

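The authors deposited raw counts: reads per gene (Ensembl IDs, introns included) for RNA, and reads per region for ATAC, with 1 region set for each sex. The submitters' processing notes name build mm10 and, with no role given here, the tools MACS2 2.1.1, DiffBind 3.2.2, SAMtools 1.3.1, STAR 2.5.4, bedtools, edgeR and DESeq2 1.16.1. Not given in the sources used here are the read counter, its strand setting, the filters and the merging of regions. As introns were counted, genes that overlap a member (Med12l for P2ry12, Dip2a for S100b, Dnajc7 for Cnp, Galnt5 for Ermn, Hmgxb3 for Csf1r, Teddm2 for Glul) may add reads to it. Columns of the male RNA table were taken by position, as its header lacks 1 name. Coordinates are printed as deposited, and it is unknown whether they count from 0 or 1.

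Tables were fitted separately in edgeR 4.0.16 (R 4.3.3) with TMM scaling, filterByExpr, robust quasi-likelihood F tests (EE against SH) and Benjamini-Hochberg adjustment over all rows, called under 0.05. The SE is the log2 fold change divided by the square root of F. Log2 levels used a prior count of 2. The code was tested on simulated data. Gene starts came from the deposited female RNA table, with 20915 protein-coding starts. DESeq2 1.42.0, limma 3.58.1 voom, other scalings, no filter, other windows, a replicate block and leaving out each library were tried. No libraries agreed within sampling noise (chi-square per degree of freedom at least 2.459).

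Members and lists were chosen with earlier results of these data known. Named genes are the defining genes of each class, the 3 astrocyte and 3 oligodendrocyte members with the smallest p, and all precursor and microglial members; named regions are the 4 with the smallest p per table. A few genes that these rules name are not reported here.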

Additional observations from a re-analysis of the deposited data

Results flagged for a closer look

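Within groups of 4 to 10 libraries, the gap of the highest or lowest library to its neighbour was compared with the range (Dixon's rule, which chance meets in about 1 of 20 groups). Of 84 groups 17 met it. Members shared libraries, and class levels were averaged from the same members, so the groups were not independent. The 17 therefore cannot be set against that rate. Female SH replicate 2 accounts for 13 of the 17. It was the high library for Slc1a3 (86.9 CPM, others 13.3 to 24.7), Mbp (208 CPM, others 82.3 to 114), Mog (7.09 CPM, others 2.1 to 2.90), Pdgfra (10.8 CPM, others 1.24 to 2.52), Cspg4 (5.92 CPM, others 0.57 to 2.42), Csf1r (7.25 CPM, others 1.40 to 2.41), C1qa (0.779 CPM, others 0.0776 to 0.325), Gfap (7.64 CPM, others 0.893 to 2.61), Aqp4 (10.1 CPM, others 1.54 to 3.48) and Sox10 (5.06 CPM, others 0.893 to 1.2). It was also high in the log2 level of astrocyte (1.19), oligodendrocyte (1.45) and precursor members (1.73).

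The log2 precursor level was low in male EE replicate 1 (-1.09, others -0.16 to 0.31) and high in male SH replicate 6 (0.64, others -0.13 to 0.07). The region upstream of Sox9 had 0.355 CPM in male ATAC SH replicate 6 (others 0.974 to 1.34). The level of the oligodendrocyte regions was 0.09 in male ATAC EE replicate 3 (others -0.01 to 0.01).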

How the results depend on the processing

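Depth limits the low members: most precursor and microglial genes had low counts in every library, and C1qa could not be tested. Of the results on named genes, regions and differences between the sexes, most kept their direction and their side of the threshold, and those that did not are given here; the cause was not tested. In female RNA, DESeq2 called 117 genes and 1 member, no count filter 168 genes and 4 members, and total count scaling 1 gene. In male RNA, DESeq2 called 61 genes and 1 member, and no count filter 136 genes. In ATAC, DESeq2 called 122 regions in females and 7 in males, and the female member regions called were 0 within 10 kb and 0 within 1 kb of a start. For the interaction, DESeq2 called 91 genes and 1 member, and total count scaling called 0. Under limma voom the female log2 fold changes were 0.31 for Cspg4, 0.04 for Slc1a3 and 0.13 for Sox10. Counted from the gene starts of the RefSeq gene table, an alternative chosen after seeing the data, 16 members had no region at the start in place of 14. Astrocyte members with a region were then 10 of 15 in females and 11 of 15 in males. Oligodendrocyte members with a region were 5 of 13 in females and 6 of 13 in males, so the contrast between these classes was smaller. Aldh1l1, Gfap and Slc4a4 joined the members with none, and Aspa left them. RefSeq gene starts are ends of the whole gene and differ from the starts of the RefSeq promoter table for some members: that of Slc4a4 lies 92960 bases from the deposited start, and its promoter-table start 442 bases.

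With the replicate number as a block, female RNA gave 95 genes and 2 members (Bmpr1b and Slc1a2), male RNA 3 genes, female ATAC 34 regions, male ATAC 1 region and the interaction 28 genes and 1 member. Blocked female values were 0.17 for Cspg4, 0.03 for Slc1a3 and 0.11 for Sox10. The samples share only a number: same-numbered libraries deviated together with a correlation over 0.1 in 3 of 6 pairs of female RNA, 1 of male RNA, 0 of 3 of female ATAC and 2 of 6 of male ATAC, and 3, 2, 2 and 2 EE libraries correlated best with their own number.

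Without the 2 farthest libraries, female correlations were 0.46 for Slc1a2 with Mbp, -0.00 for Slc1a2 with Pdgfra, 0.51 for Slc1a2 with Cx3cr1, 0.15 for Mbp with Pdgfra and -0.09 for Pdgfra with Cx3cr1, and male ones -0.06 for Slc1a2 with Pdgfra and -0.15 for Mbp with Cx3cr1. On deviations from the housing mean, they were 0.87 for female Slc1a2 with Pdgfra and 0.64 for female Pdgfra with Cx3cr1 (permutation test, adjusted p = 0.00320 and 0.0366). Male Pdgfra with Cx3cr1 was at 0.66 there and at 0.69 with total count scaling (permutation test, adjusted p = 0.0366 and 0.0487). These values of r crossed the threshold, while rho of Pdgfra with Cx3cr1 did not.

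Leaving out 1 library at a time, genes called ranged from 0 to 85 in female RNA (85 without SH replicate 2) and from 0 to 11 in male RNA, with 0 to 2 and 0 members. Regions called ranged from 22 (without SH replicate 2) to 333 (without SH replicate 1) in female ATAC, with 1 to 3 members, and from 0 to 3 in male ATAC. Interaction calls ranged from 0 to 39 (without female SH replicate 2), with 0 members. The median over members ranged from -0.33 to 0.31 in females and from 0.09 to 0.33 in males. Female log2 fold changes that turned were Gjc3 (-0.66 to 0.02), Cnp (-0.56 to 0.13), Pdgfra (-0.06 to 0.99), Cspg4 (-0.24 to 0.58), Csf1r (-0.35 to 0.50), P2ry12 (-0.49 to 0.31), Slc1a3 (-0.32 to 0.58), Gfap (-0.67 to 0.39), Aqp4 (-0.52 to 0.19), Mbp (-0.21 to 0.15), Mog (-0.52 to 0.05) and Sox10 (-0.25 to 0.69). Male ones were Pdgfra (-0.19 to 0.09), Cx3cr1 (-0.12 to 0.08) and Mbp (-0.02 to 0.22).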
